A study of Mus musculus with 9 samples.

Results

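The immunity-related GTPases are a family of interferon-inducible proteins, and 7 of their genes were followed here: Irgm1, Irgm2, Igtp, Iigp1, Tgtp1, Tgtp2 and Ifi47. They were taken by symbol from a table of 21959 mouse genes, in which each symbol matched a single line, by a rule that uses symbols and no threshold on a value. Of the 7 genes, 5 passed the filter on low counts, which kept 11568 genes in all, and Tgtp1 and Tgtp2 did not.

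Immunity-related GTPases bind and hydrolyse GTP and act at membranes, above all at the vacuoles in which intracellular parasites and bacteria live. Effector members, such as Iigp1, Tgtp1, Tgtp2 and Ifi47, assemble on such vacuoles and disrupt them, while the regulatory members Irgm1, Irgm2 and Igtp (also called Irgm3) sit on the cell's own membranes and hold the effectors inactive there. The lipid-conjugated Atg8 proteins of the autophagy pathway help to tell these membranes apart, and guanylate-binding proteins join the effectors at the vacuole. Interferon-gamma and, more weakly, type I interferons switch the genes on, through promoter elements known as the gamma-activated site (GAS) and the interferon-stimulated response element (ISRE).

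The cells were DC2.4, an immortalized line of mouse dendritic cells, and gave 9 libraries, 3 of them labelled OMVSSDC, 3 PBSDC and 3 ZJDC. GEO's design text speaks of engineered extracellular vesicles given to these cells and of immune-related genes. The labels give no meaning for OMVSS or ZJ, no dose and no time, and PBS conventionally means phosphate-buffered saline, so PBSDC was used as the reference. Nothing in the labels ties the 3 libraries of a group to separate cultures, and p-values measure only the spread between these libraries, which may be technical.

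Library totals ran from 12784931 to 18388959 counts. OMVSSDC replicate 3 stood apart from the other libraries of its group, at a root mean square log2 difference of 0.522 and 0.501 from replicates 1 and 2, where pairs within the groups otherwise lay between 0.237 and 0.299. The share of counts from the 13 mitochondrially encoded genes was 1.81, 1.86 and 4.44% in OMVSSDC, 6.89 to 7.84% in PBSDC and 4.6 to 5.72% in ZJDC. All 10 myeloid markers exceeded a mean of 1 CPM (counts scaled to library size) in each group, and their summed level lay between 4214 and 4660 CPM. Single markers differed in both directions: Lyz2 had a mean of 808 CPM in PBSDC, 316 in OMVSSDC and 273 in ZJDC, Itgam 322, 123 and 164, and Cd86 133, 327 and 304. The 10 T and NK cell markers, cells that make interferon-gamma, summed to at most 0.408 CPM in any library, and Cd3e, Cd3g, Cd2, Cd8a, Klrb1c, Ncr1 and Prf1 had 0 counts throughout. The 4 endothelial markers summed to 19.2 to 19.9 CPM in PBSDC, 4.53 to 8.29 in OMVSSDC and 6.1 to 7.07 in ZJDC, and the 10 heart and brain markers to 29.5 to 31.7, 4.77 to 16.3 and 14.7 to 18.4 CPM. The 5 erythroid markers summed to 0.238 to 9.36 CPM in OMVSSDC and to at most 0.598 CPM in the other groups. Their part in the values below was not tested.

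The 7 genes differed widely in counted level, with the regulatory genes in the middle of the transcriptome and very few counts for most effector genes. Levels between genes were compared in FPKM, which divides counts by gene length and library total. In PBSDC, Igtp stood at 9.36 ± 0.734 FPKM and Irgm1 at 9.34 ± 0.417 FPKM (SD, n = 3), each above 59.1% of the tested genes, and the libraries of these 2 genes overlapped. Irgm2 came next at 6.29 ± 0.163 FPKM (SD, n = 3), below both in every PBSDC library. Ifi47 reached 1.66 ± 0.426 FPKM (SD, n = 3), above 22.6% of tested genes. In OMVSSDC the means were 10.9 ± 1.42 for Irgm1, 9.26 ± 1.03 for Igtp, 8 ± 1.77 for Irgm2 and 3.51 ± 0.731 FPKM for Ifi47 (SD, n = 3), and the 3 regulatory genes overlapped. In ZJDC they were 9.41 ± 0.567 for Irgm1, 7.81 ± 0.795 for Irgm2, 6.91 ± 0.381 for Igtp and 2.34 ± 0.185 FPKM for Ifi47 (SD, n = 3), so that Igtp and Irgm2, which overlapped there, stood in the other order than in PBSDC.

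Iigp1 lay far lower, at 0.152 ± 0.0362 FPKM in PBSDC (SD, n = 3), 0.111 ± 0.0493 in OMVSSDC and 0.0826 ± 0.0457 in ZJDC. Tgtp1 and Tgtp2 were near the limit of detection in all groups. Tgtp1 had 0, 0 and 3 counts in the OMVSSDC libraries, then 1, 1 and 1 in PBSDC and 4, 1 and 0 in ZJDC. Tgtp2 had 1, 3 and 0 counts in the OMVSSDC libraries, 1, 0 and 1 in PBSDC and 1, 0 and 1 in ZJDC. A count of 0 allows up to 3 counts, or 0.163 to 0.235 CPM depending on the library, for counting error only, and all but 1 of the 18 values were at or under 3 counts. No fold change is given for either gene, and their summed counts did not pass the filter either.

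**Figure D1:**
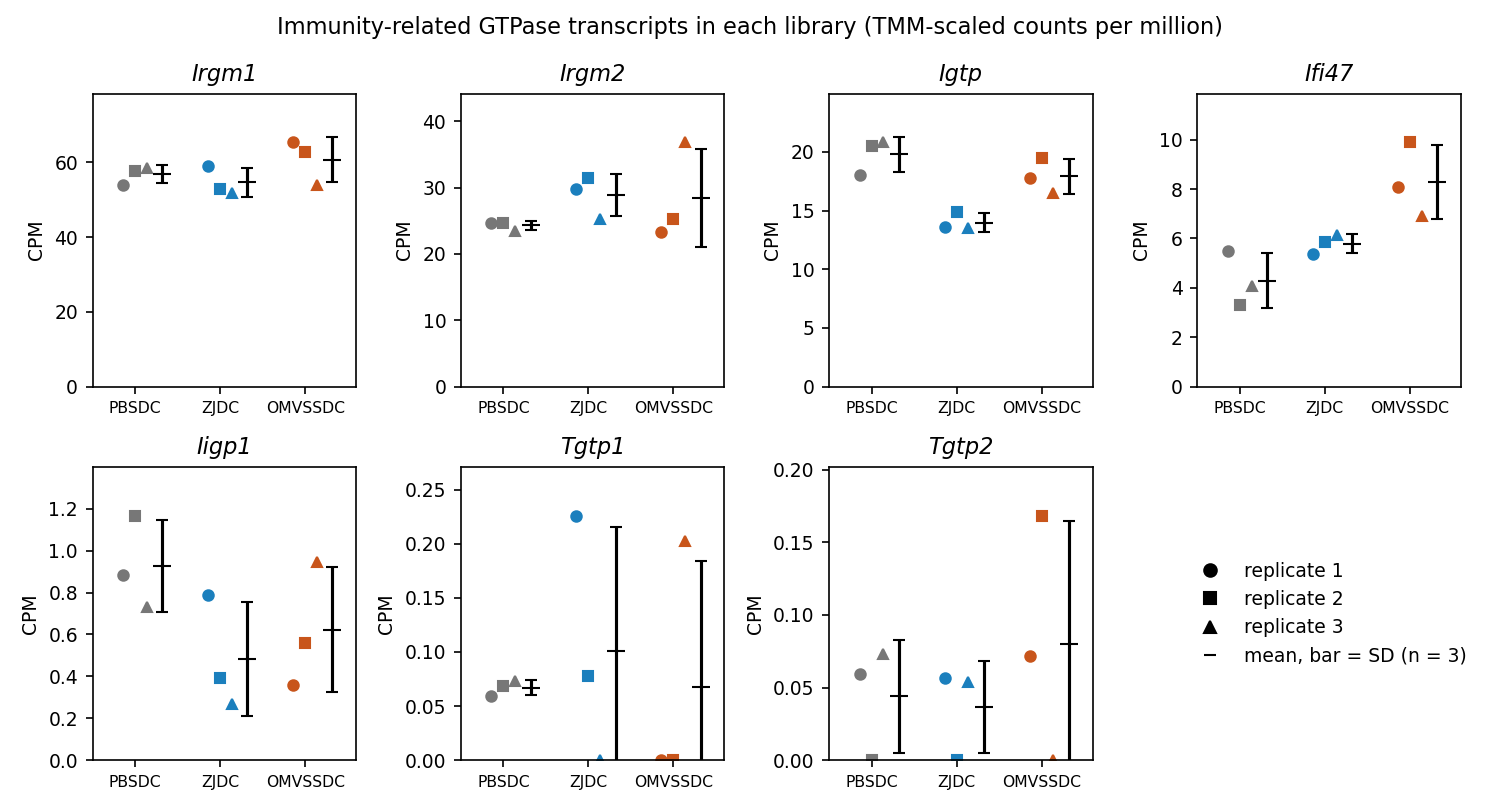
Level of each of the 7 genes in each library, in CPM scaled by TMM (y axis, a separate linear scale from 0 for each gene), for PBSDC, ZJDC and OMVSSDC (x axis). Points are libraries, with the shape giving the replicate, and the bar is the mean with its SD (n = 3). Ifi47 is higher in every OMVSSDC library than in any other, Igtp is lower in every ZJDC library than in any other, and Tgtp1 and Tgtp2 stay near 0.

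In the deposited table, for which no source used here names a genome build, 6 of the genes lie on chromosome 11 and Iigp1 (ENSMUSG00000054072) lies on chromosome 18, at 60509099 to 60525706. Irgm1 (ENSMUSG00000046879, 48752795 to 48762510, minus strand), Tgtp1 (ENSMUSG00000078922, 48876154 to 48884999, minus strand), Tgtp2 (ENSMUSG00000078921, 48948021 to 48955033, minus strand) and Ifi47 (ENSMUSG00000078920, 48967414 to 48987801, plus strand) form a cluster. Igtp (ENSMUSG00000078853, 58090382 to 58098417) and Irgm2 (ENSMUSG00000069874, 58090444 to 58113608) overlap on the plus strand.

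Sequence shared between copies bears on how far counts belong to a single gene. In the GRCm38 annotation, 77.2% of 75-base stretches of Tgtp1 transcripts also occur in another gene, and 81.4% of those of Tgtp2. Nearly all of these are shared between Tgtp1 and Tgtp2. The split of reads between them is uncertain, as is whether reads that match both were counted at all. Their low counts may therefore understate their level. Tgtp1 also shares 223 exonic bases (6.96%) with the family gene Gm12185 on the same strand. Igtp and Irgm2 share 162 exonic bases, 8.01% of Igtp and 4.39% of Irgm2. Ifi47 shares 111 exonic bases with Olfr56 (4.49%) and 106 with the antisense gene Gm12188 (4.29%). No 75-base stretch of Irgm1 or Iigp1 occurs in another gene. No source used here tells how reads in shared or overlapping sequence were assigned or whether strand was used.

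The promoters of these genes are shown because 4 of them carry the same pair of interferon elements in the same order and spacing. RefSeq promoters (GRCm38.p6, 250 bases before the start) were found for 6 of the 7 genes, Iigp1 being the exception. The RefSeq starts were not matched to the starts of the gene entries that were counted. Both strands were searched for an ISRE core, GAAANNGAAA, and a GAS element, TTCNNNGAA, and matches stand in capitals. The windows below run 5′ to 3′ on the gene's strand, at chr11:58214882-58214942 (plus) for Irgm2, chr11:58199491-58199551 (plus) for Igtp, chr11:48992294-48992354 (minus) for Tgtp1, chr11:49064253-49064313 (minus) for Tgtp2 and chr11:48871421-48871470 (minus) for Irgm1.
Irgm2: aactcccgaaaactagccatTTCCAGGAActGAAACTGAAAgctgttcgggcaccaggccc
Igtp: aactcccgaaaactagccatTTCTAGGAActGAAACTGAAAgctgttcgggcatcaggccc
Tgtp1: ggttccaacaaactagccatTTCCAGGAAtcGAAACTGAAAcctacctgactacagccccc
Tgtp2: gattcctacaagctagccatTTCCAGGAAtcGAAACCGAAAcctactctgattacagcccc
Irgm1: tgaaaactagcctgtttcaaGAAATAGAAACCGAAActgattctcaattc

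The ISRE core occurred in 5 of these 6 genes, beside 3.46% of 27025 genes with a promoter in the same table, and the GAS element in 4 of 6, beside 8.13%. In Igtp the GAS element spans bases 45 to 37 before the start and the ISRE core bases 34 to 25, in Irgm2 75 to 67 and 64 to 55. In Tgtp1 they span 88 to 80 and 77 to 68, and in Tgtp2 81 to 73 and 70 to 61. The windows of Irgm2 and Igtp were identical at 59 of 61 bases, and those of Tgtp1 and Tgtp2 at 47 of 61. The joined pair, TTCNNNGAANNGAAANNGAAA, was searched for after these windows had been seen, and it occurred in 5 of 27025 genes (0.019%), namely Igtp, Irgm2, Tgtp1, Tgtp2 and the family gene Gm12185. Gm12185 overlaps Tgtp1 on the same strand, and whether these genes hold separate copies of the pair was not tested. Irgm1 carried 2 overlapping ISRE cores, at 30 to 21 and 24 to 15, and no GAS match.

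Ifi47 was the exception, with neither motif in its window, chr11:49076337-49076586 (plus strand), which is shown whole because this gene had the largest positive fold change of the 5 tested members against PBSDC in OMVSSDC. A match describes letters and not binding, and no match says only that these letters are not in the window.
Ifi47: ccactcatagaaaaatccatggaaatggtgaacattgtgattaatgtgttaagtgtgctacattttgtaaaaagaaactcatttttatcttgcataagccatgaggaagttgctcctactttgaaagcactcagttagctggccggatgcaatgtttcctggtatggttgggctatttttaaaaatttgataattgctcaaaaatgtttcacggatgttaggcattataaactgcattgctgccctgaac

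**Figure D2:**
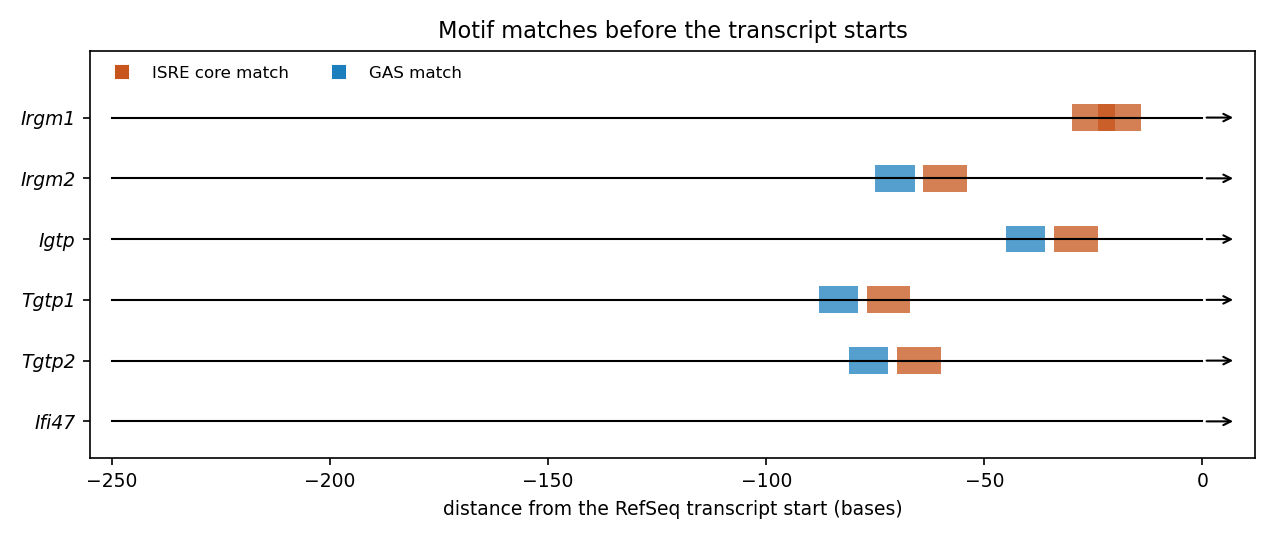
Place of each motif match in the promoters of 6 of the genes (rows); the x axis is the distance in bases to the transcript start, marked by the arrow, with ISRE core matches in orange and GAS matches in blue. The pair sits in the same order in Irgm2, Igtp, Tgtp1 and Tgtp2, Irgm1 has 2 overlapping ISRE cores, and Ifi47 has no match.

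Against PBSDC, OMVSSDC had higher Ifi47 and no other family member of the 7 passed the test. This was 1 of 5 tested genes, higher, and 0 lower, in a comparison in which 63.6% of all tested genes passed, 33.4% of them higher and 30.2% lower as shares of all tested genes. DESeq2 and an unadjusted p under 0.05 also gave Ifi47 alone. The median log2 fold change was 0.10 over the 5 genes and 0.05 over all tested genes. RNA was taken from whole cultures, so a change in the number of cells that express a gene and a change in RNA per cell cannot be told apart.

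Ifi47, an effector GTPase, measured 8.08, 9.89 and 6.90 CPM in OMVSSDC replicates 1, 2 and 3 and 5.49, 3.29 and 4.09 CPM in PBSDC. All OMVSSDC libraries lay above all PBSDC libraries, a separation in that direction found for 33.9% of tested genes. The gene rose 1.93-fold, a log2 fold change of 0.95 (SE 0.202, 95% interval 0.50 to 1.40) with an adjusted p of 0.00221 in edgeR's quasi-likelihood F-test with Benjamini-Hochberg adjustment over all tested genes. It passed under all 18 alternative settings, with log2 fold changes between 0.67 and 1.17.

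None of the regulatory genes passed with all 9 libraries, although some single libraries lay outside the PBSDC range. Irgm1, which acts at Golgi and lysosomal membranes and is needed for resistance to mycobacteria, measured 65.4, 62.9 and 53.9 CPM in OMVSSDC and 54.0, 57.8 and 58.6 CPM in PBSDC. The groups overlapped, and the log2 fold change of 0.10 (95% interval -0.10 to 0.29) had an adjusted p of 0.357 (edgeR). Irgm2, a Golgi-associated member, measured 23.2, 25.3 and 36.8 CPM in OMVSSDC and 24.7, 24.7 and 23.5 CPM in PBSDC, and only OMVSSDC replicate 3 departed clearly from the PBSDC range. Its log2 fold change of 0.23 (95% interval -0.13 to 0.59) had an adjusted p of 0.243 (edgeR), and without OMVSSDC replicate 3 it was -0.00, with an adjusted p of 1. Without that replicate Irgm1 passed instead, at a log2 fold change of 0.18 and an adjusted p of 0.0223 (edgeR), which gave 2 of 5 genes. The share of all tested genes passing was then 75.5%.

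Igtp, which resides at the endoplasmic reticulum and lipid droplets, measured 17.8, 19.5 and 16.5 CPM in OMVSSDC and 18.1, 20.5 and 20.8 CPM in PBSDC. These groups overlapped as well, at a log2 fold change of -0.14 (95% interval -0.37 to 0.09, edgeR adjusted p of 0.249). Iigp1, the best-studied effector at the Toxoplasma vacuole, was counted 5, 10 and 14 times in OMVSSDC, beside 15, 17 and 10 times in PBSDC. At this depth its interval was wide, with a log2 fold change of -0.57 (95% interval -1.57 to 0.43, edgeR adjusted p of 0.29).

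Against PBSDC, ZJDC had lower Igtp and no other member of the 7 passed. This was 1 of 5 tested genes, lower, and 0 higher, where 54.7% of all tested genes passed, 27.6% higher and 27.1% lower. DESeq2 and an unadjusted p under 0.05 also gave Igtp alone. The median log2 fold change was -0.05 over the 5 genes and 0.01 over all tested genes. Both comparisons use the same PBSDC libraries, so their values are not independent.

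Igtp measured 13.6, 14.9 and 13.5 CPM in ZJDC, all below the PBSDC libraries at 18.1 to 20.8 CPM, a separation in that direction found for 36% of tested genes. The gene fell by 0.50 on the log2 scale (SE 0.104, 95% interval -0.73 to -0.27), to 0.706 of its PBSDC level, with an adjusted p of 0.00224 (edgeR). It passed under all 18 alternative settings, with log2 fold changes between -0.57 and -0.44. Its overlapping neighbour stood on the other side of PBSDC. Irgm2 measured 29.8, 31.4 and 25.3 CPM in ZJDC, all above the 23.5 to 24.7 CPM of PBSDC, as for 36.2% of tested genes, but its log2 fold change of 0.25 (SE 0.161, 95% interval -0.11 to 0.60) did not pass, at an edgeR adjusted p of 0.222.

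Irgm1 measured 59.2, 53.0 and 51.9 CPM in ZJDC and overlapped PBSDC, at a log2 fold change of -0.05 (95% interval -0.25 to 0.14, edgeR adjusted p of 0.631). Ifi47 measured 5.36, 5.87 and 6.12 CPM, and the lowest of these lay below PBSDC replicate 1 at 5.49 CPM, so the groups overlapped. Its log2 fold change was 0.42 (SE 0.207, 95% interval -0.04 to 0.88) with an adjusted p of 0.11 (edgeR), and without PBSDC replicate 1 it was 0.65 with an adjusted p of 0.0295. Iigp1 had 14, 5 and 5 counts in ZJDC, at a log2 fold change of -0.92 (95% interval -1.95 to 0.12, edgeR adjusted p of 0.119). Without ZJDC replicate 1 the value for Iigp1 was -1.51, with an adjusted p of 0.0371. Without OMVSSDC replicate 3, which belongs to neither group but enters the shared scaling and estimate of spread, 3 of 5 genes passed, Irgm2 at 0.24 and Ifi47 at 0.42 joining Igtp, with edgeR adjusted p of 0.0148 and 0.0389. Of all tested genes 70.8% passed in that setting.

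Between OMVSSDC and ZJDC, 0 of the 5 genes passed in edgeR, where 1.95% of all tested genes did (0.856% higher and 1.1% lower). At an unadjusted p under 0.05 there were 2, Igtp and Ifi47, and DESeq2 passed 1, Igtp, at a log2 fold change of 0.34 and an adjusted p of 0.0473. In both genes every OMVSSDC library lay above every ZJDC library, as for 11.7% of tested genes. The log2 fold change was 0.36 for Igtp (SE 0.104, 95% interval 0.13 to 0.59, edgeR adjusted p of 0.0777) and 0.53 for Ifi47 (SE 0.195, 95% interval 0.09 to 0.96, edgeR adjusted p of 0.112). Irgm1 stood at 0.15 (95% interval -0.05 to 0.35), Irgm2 at -0.02 (-0.38 to 0.34) and Iigp1 at 0.35 (-0.76 to 1.45). So a call against PBSDC in one group and not in the other is not shown to be a difference between them for Ifi47 or Igtp.

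This comparison turned on OMVSSDC replicate 3. Without it 4 of the 5 genes passed (edgeR), Irgm1 at a log2 fold change of 0.23, Igtp at 0.42 and Ifi47 at 0.65 higher in OMVSSDC and Irgm2 at -0.24 lower, while the genes passing among all those tested went from 226 to 6515.

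The count of Igtp divided by that of Irgm2 in the same library, a ratio chosen after the values were seen and given as a description only, was 0.732, 0.831 and 0.885 in PBSDC and 0.456, 0.474 and 0.533 in ZJDC. In OMVSSDC it was 0.764 and 0.770 in replicates 1 and 2, within the PBSDC range, and 0.449 in replicate 3, just below the ZJDC range. Neither gene alone placed replicate 3 in the ZJDC range, with Igtp at 16.5 CPM beside 13.5 to 14.9 and Irgm2 at 36.8 CPM beside 25.3 to 31.4. These 2 genes share exonic sequence, and their ratio needs no scaling between libraries. Their RefSeq promoter windows are almost identical, but the counted Irgm2 entry starts at 58090444, close to the Igtp start at 58090382. The windows lie further apart, at 58214882 for Irgm2 and 58199491 for Igtp. The Irgm2 window is thus not the one at the start of the counted Irgm2 entry.

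**Figure D3:**
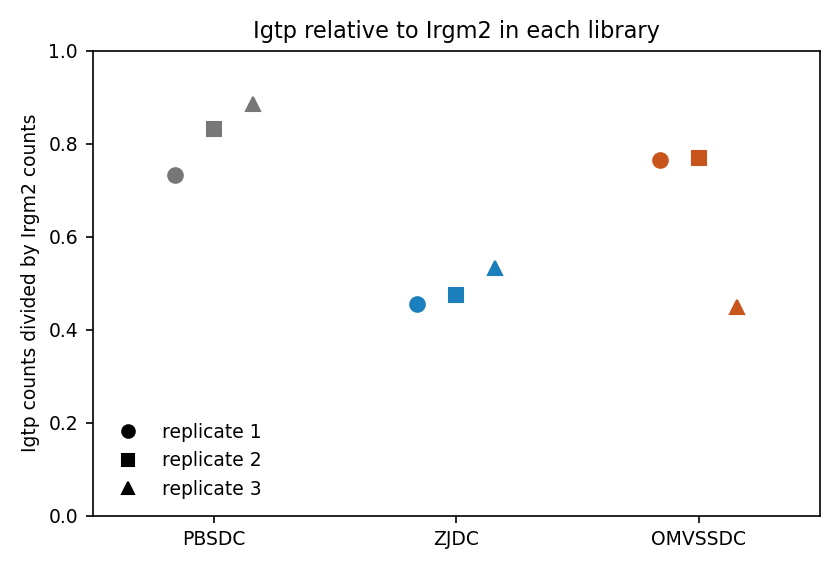
Counts of Igtp divided by counts of Irgm2 in each library (y axis, no unit, from 0) for PBSDC, ZJDC and OMVSSDC (x axis), with the point shape giving the replicate. ZJDC lies between 0.456 and 0.533 and PBSDC between 0.732 and 0.885; OMVSSDC replicates 1 and 2 lie at 0.764 and 0.770 and replicate 3 at 0.449.

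Of 20 further symbols of the family that were looked up, 9 were matched and 5 passed the filter; Irgb10 (Gm12250) is not analysed here. Irgq, a divergent member thought to lack GTPase activity, passed in both comparisons with PBSDC, the 1 gene of the 5 to do so. Of all tested genes 63.6% passed in OMVSSDC and 54.7% in ZJDC. Irgq measured 43.5, 43.7 and 42.2 CPM in OMVSSDC, 19.6, 21.1 and 21.4 in PBSDC and 30.7, 33.6 and 33.2 in ZJDC, with no overlap between any groups. Such a separation upward was found for 33.9% of tested genes in OMVSSDC against PBSDC, 36.2% in ZJDC against PBSDC and 11.7% in OMVSSDC against ZJDC. Irgq rose by a log2 fold change of 1.06 (SE 0.0764, edgeR adjusted p of 1.31e-06) in OMVSSDC and 0.65 (SE 0.0767, edgeR adjusted p of 5.74e-05) in ZJDC. Between these 2 groups it differed by 0.41 (edgeR adjusted p of 0.0355), but 10 of 18 alternatives did not keep that call, the replicate block among them at 0.138.

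The tandem genes 9930111J21Rik1 and 9930111J21Rik2, Gm5431 and Gm12185, which encode related GTPases, did not pass in any comparison. Against PBSDC their log2 fold changes were -0.02, -0.50, 0.15 and -0.24 in OMVSSDC and -0.27, -0.12, -0.12 and -0.50 in ZJDC. In 9930111J21Rik2 the OMVSSDC libraries split, at 64.3 and 63.0 CPM in replicates 1 and 2 and 179.7 CPM in replicate 3, beside 136.1 to 153.7 CPM in PBSDC and 115.7 to 149.5 CPM in ZJDC. Replicates 1 and 2 lay below all other libraries and replicate 3 above them, so that without replicate 3 the log2 fold change against PBSDC was -1.19 (edgeR adjusted p of 4.35e-08). The remaining 4, Irgc1, Gm4951, F830016B08Rik and Gm4841, had at most 13 counts in any library and were not tested.

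The interferon pathway upstream of the family was counted over a list of 30 genes, 23 of which were tested. In OMVSSDC 9 passed higher and 5 lower than in PBSDC (60.9% of the tested list), with a median log2 fold change of 0.16. In ZJDC 11 passed higher and 3 lower (60.9%), with a median of 0.23, beside 0.05 and 0.01 over all tested genes. Both shares count either direction and are near those of all tested genes given above. By direction, 33.4% of all tested genes were higher and 30.2% lower in OMVSSDC, and 27.6% and 27.1% in ZJDC. In each comparison 9 of the 23 did not pass. Among ligands, Ifng, Ifna2, Ifna4, Ifna5, Ifnl2 and Ifnl3 had 0 counts in all 9 libraries, which allows up to 0.235 CPM at the lowest depth, and Ifnb1 had 4 counts in all.

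Several genes of the signalling to such promoters were higher. Irf1, which acts at ISRE elements and was named after its values were seen, rose by a log2 fold change of 1.11 in OMVSSDC and 0.72 in ZJDC (edgeR adjusted p of 0.000159 and 0.00321). Irf7, the master regulator of type I interferon genes, rose by 2.04 and 1.51 (1.65e-08 and 1.44e-07), and the receptor-associated kinase Jak2 by 1.50 and 1.57 (1.93e-07 and 2.84e-07).

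The receptor chain Ifnar2 rose by a log2 fold change of 0.40 and 0.25 in OMVSSDC and ZJDC. Usp18, which dampens type I interferon receptors, rose by 1.11 and 0.55 (edgeR adjusted p of 1.41e-06 and 0.000284). The phosphatase gene Ptpn6 fell by 0.66 and by 0.51 on the log2 scale (2.33e-06 and 1.98e-05). Ifngr1, the ligand-binding chain for interferon-gamma, also named after its values were seen, fell by 0.43 in OMVSSDC (0.00212) and by 0.24 in ZJDC (0.0443), and 9 of 18 alternatives did not keep the second call.

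Across promoters, 315 tested genes had an ISRE core in the 250 bases before the start. In OMVSSDC 136 of them (43.2%) were higher and 85 lower than in PBSDC, beside 33.4% and 30.2% of all tested genes. In ZJDC 112 (35.6%) were higher and 77 lower, beside 27.6% and 27.1%. Of the genes with the GAS and ISRE pair, 3 were tested, Igtp, Irgm2 and Gm12185, and 0 were higher in either comparison, in edgeR, at an unadjusted p under 0.05 or in DESeq2, while 1, Igtp, was lower in ZJDC. At an unadjusted p under 0.05 Gm12185 was lower in ZJDC too, at 0.0494. The RefSeq starts were not matched to the counted entries, and the Irgm2 window is not at the start of its entry. The counts of these genes thus need not read out the promoters with the pair.

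The conjugation machinery that marks membranes for these GTPases was counted over 11 genes, all tested. In OMVSSDC 8 passed higher and 1 lower than in PBSDC (81.8%), with a median log2 fold change of 0.53, beside 63.6% of all tested genes passing. In ZJDC 4 passed higher and 2 lower (54.5%), with a median of 0.22, a share near the 54.7% of all tested genes. Without OMVSSDC replicate 3 the ZJDC count was 7 higher and 3 lower, in a setting where 70.8% of all tested genes passed. Map1lc3a, an Atg8 protein, rose by 2.41 in OMVSSDC and 2.0 in ZJDC, and Gabarapl1, another, by 0.96 and 0.71. Gabarap rose by 0.59 and 0.66, and Map1lc3b by 0.71 in OMVSSDC but stood at 0.22 in ZJDC (edgeR adjusted p of 0.101). Of the ligation machinery, Atg12 rose by 0.78 and 0.49, while the E2-like enzyme gene Atg3 fell by 0.54 and by 0.27.

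Most of the family's partners at the vacuole were higher in both groups than in PBSDC. Of 17 tested partner genes, 14 passed higher and 1 lower in each comparison with PBSDC (88.2%), with median log2 fold changes of 1.59 in OMVSSDC and 1.81 in ZJDC. Of all tested genes 33.4% were higher and 30.2% lower in OMVSSDC, and 27.6% higher and 27.1% lower in ZJDC. All 11 guanylate-binding protein genes rose in both, with log2 fold changes from 1.08 (Gbp3) to 4.23 (Gbp8) and a median of 2.52 in OMVSSDC, and from 1.03 (Gbp3) to 3.89 (Gbp8) and a median of 2.20 in ZJDC. The autophagy receptor gene Sqstm1 rose by 2.18 and 1.88. Between OMVSSDC and ZJDC 0 of the 17 passed in edgeR; 5 were under an unadjusted p of 0.05 (Gbp2, Gbp8, Sqstm1, Rnf31 and Gdi2), and 5 passed in DESeq2.

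Summed over each family, the levels were as follows in every library. The 11 guanylate-binding protein genes summed to 38.3, 39.3 and 41 FPKM in PBSDC, 156, 155 and 150 in ZJDC and 168, 173 and 197 in OMVSSDC. The 7 immunity-related GTPase genes summed to 26.1, 27.1 and 27.4 FPKM in PBSDC, 27.1, 27.4 and 25.3 in ZJDC and 31.6, 33.5 and 30.6 in OMVSSDC. The GTPase sums of PBSDC and ZJDC overlapped, and those of OMVSSDC lay above both by a few FPKM. FPKM is scaled by library total alone. In CPM scaled by TMM, without division by gene length, the GTPase sums lay closer together. They ran from 114.3 to 118.6 in OMVSSDC, 103.2 to 108.1 in PBSDC and 97.37 to 109.1 in ZJDC.

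**Figure D4:**
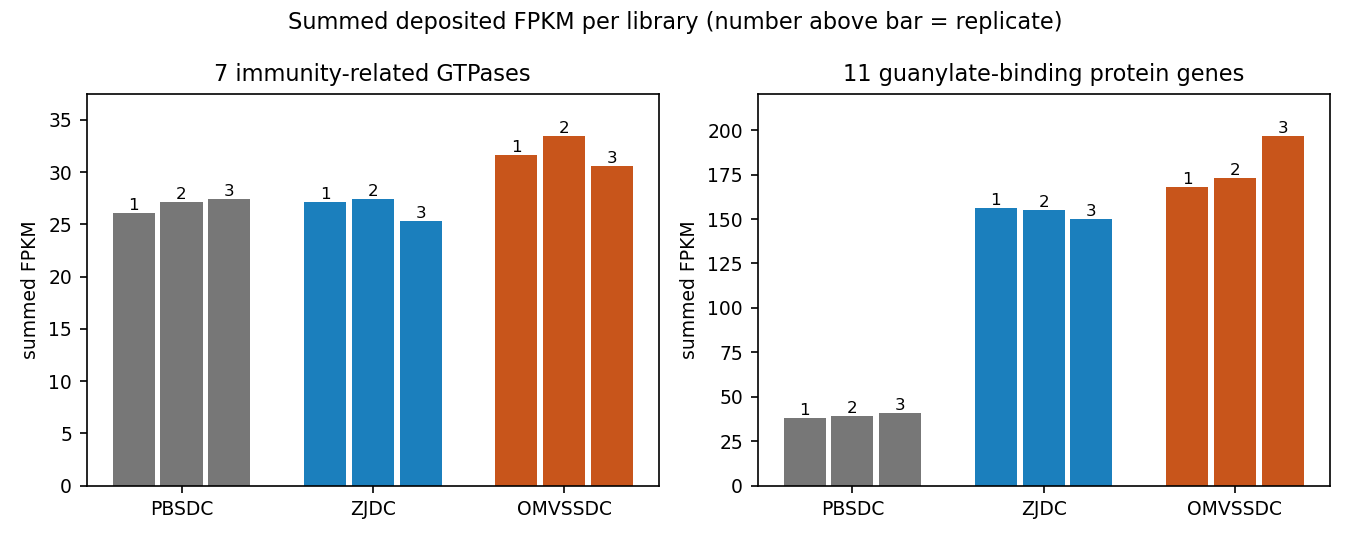
Summed deposited FPKM per library (y axis, from 0) of the 7 immunity-related GTPase genes (left) and the 11 guanylate-binding protein genes (right) in PBSDC, ZJDC and OMVSSDC (x axis), with the replicate number above each bar. The GTPase sums run from 25.3 to 33.5 and those of the guanylate-binding proteins from 38.3 to 197.

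**Figure D5:**
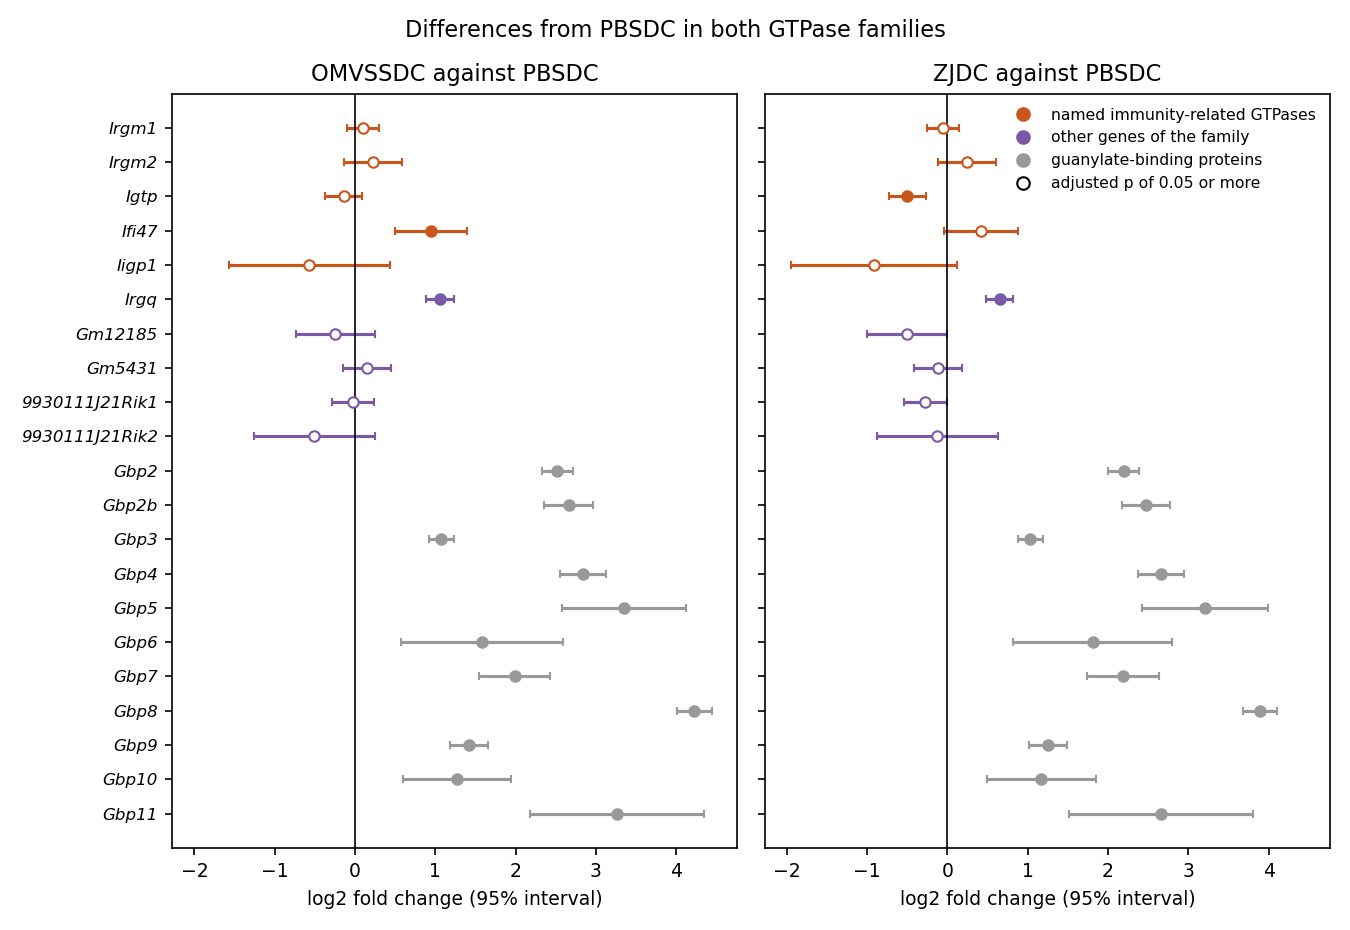
Log2 fold change against PBSDC with its 95% interval (x axis) for each tested gene (rows) of the named immunity-related GTPases (orange), the other family genes (purple) and the guanylate-binding proteins (grey), in OMVSSDC (left) and ZJDC (right). Filled points have an adjusted p under 0.05 in edgeR; all 11 guanylate-binding protein genes are filled on the higher side in both panels, while of the named GTPases only Ifi47 is filled on the left and only Igtp on the right.

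The genes whose levels followed each member most closely over the 9 libraries differed from member to member. Candidates were 9471 tested genes (9472 for Iigp1) with a mean of at least 5 CPM and an established symbol. Family genes with provisional symbols, such as Gm5431, were thus not candidates. The closest genes were ranked by Pearson's r of log2 CPM, as a description that the 3 groups and the library scaling enter. For Ifi47 they were Glrx2, Nudt7 and Trnau1ap, each at 0.968. For Igtp they were Rsrp1 at 0.964 and Med20 and Crebzf at 0.962. Irgm2 was followed by Zfp40 (0.955), Zfp229 (0.942) and Klf3 (0.939). Irgm1 was followed by Socs5 (0.930), Cds1 (0.924) and Psme1 (0.921), and Iigp1 by Dync1li2 (0.904), D11Wsu47e (0.897) and Ttc1 (0.889). None of Irgm1, Irgm2, Igtp and Ifi47 was among the 3 closest genes of another member. Iigp1, Tgtp1 and Tgtp2 lay under the limit of 5 CPM and could not appear.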

How the data were processed

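Total RNA of 9 DC2.4 libraries was sequenced. Per the submitters' processing notes, fastp 0.22.0, HISAT2 2.1.0 and HTSeq 0.9.1 were used; no source used here names the genome build or annotation. The authors deposited whole-number read counts per gene, and FPKM, each of which equalled the count over gene length and library total within 1%.

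Counts were fitted in R 4.3.3 with edgeR 4.0.16 (filterByExpr, minimum count 10 and minimum total 15; TMM scaling; robust quasi-likelihood F-test, two-sided; 3 contrasts of all 9 libraries with group as the only factor, 6 residual degrees of freedom) and adjusted by Benjamini-Hochberg over 11568 genes, with a threshold of 0.05. The standard error is the fold change over the square root of F. The fit was tested on simulated data. FPKM served to compare levels between genes and, summed over a family, to show each library, without a test. Alternatives were RLE or library-size scaling, no filter or at least 50 counts, DESeq2 1.42.0, the replicate block, only the 2 groups compared, each library left out, the 7 libraries other than OMVSSDC 1 and 2, and Tgtp1 and Tgtp2 summed.

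The members, lists and alternatives were chosen with earlier results of these data known. All 7 members are named, every matched gene of the wider family, and up to 6 genes of each other list by smallest adjusted p against PBSDC, apart from a gene not reported here; other examples are said to be chosen after their values were seen. Promoters come from RefSeq (GRCm38.p6).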

Additional observations from a re-analysis of the deposited data

How the results depend on the processing

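The calls of Ifi47 in OMVSSDC and of Igtp in ZJDC against PBSDC held in all 18 alternatives each, with edgeR or DESeq2 adjusted p of 8.1e-06 to 0.0199 and 4.37e-05 to 0.0118. Not all of these alternatives could move a call. Summing Tgtp1 and Tgtp2 left both calls exactly as in the main fit. Leaving out a library of the third group acts only through the shared scaling and estimate of spread. The number of the 5 tested genes called ranged from 1 to 2 in OMVSSDC against PBSDC, from 1 to 3 in ZJDC against PBSDC and from 0 to 4 in OMVSSDC against ZJDC when single libraries were left out. It was 2, 3 and 0 in the 7 libraries other than OMVSSDC replicates 1 and 2, where the lone OMVSSDC library is assumed to vary like the other groups and Irgm2 joins Ifi47 at a log2 fold change of 0.60. With only the 2 groups compared ZJDC against PBSDC gave 3, beside 69.8% of all tested genes. DESeq2 gave 1 in OMVSSDC against ZJDC, beside 14% of the genes it tested. The highest counts with a library left out came without OMVSSDC replicate 3. The share of all tested genes passing was then 75.5% in OMVSSDC against PBSDC, 70.8% in ZJDC against PBSDC and 56.3% in OMVSSDC against ZJDC. With all 9 libraries these shares were 63.6, 54.7 and 1.95%. The cause of these moves was not tested.

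Signs turned only in values that had not passed. For OMVSSDC against PBSDC in the 7 libraries these were Irgm1 (-0.072), Iigp1 (0.030), Gm12185 (0.046), 9930111J21Rik1 (0.12) and 9930111J21Rik2 (0.31, there past the threshold). In the 7 libraries Irgm1 (-0.022), Irgm2 (0.36) and 9930111J21Rik2 (0.43) turned against ZJDC. With library size alone they were Irgm1 in ZJDC against PBSDC (0.011), Irgm2 in OMVSSDC against ZJDC (0.038) and 9930111J21Rik1 in OMVSSDC against PBSDC (0.10). Leaving out single libraries gave OMVSSDC against PBSDC values of -0.00 to 0.34 for Irgm2, -0.020 to 0.23 for Gm5431 and -0.095 to 0.075 for 9930111J21Rik1, and OMVSSDC against ZJDC values of -0.24 to 0.10 for Irgm2 and -0.051 to 0.94 for Iigp1, the lowest of each being the value without OMVSSDC replicate 3.

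Same-numbered libraries correlated between -0.388 and 0.089 in their deviations from group means, which gave no sign of pairing by number. With 3 libraries a group and OMVSSDC replicate 3 apart from its group, these values cannot exclude pairing. The replicate block left the member counts at 1, 1 and 0 (Ifi47 at 0.95, adjusted p of 0.0077; Igtp at -0.50, adjusted p of 0.00536), while over all tested genes OMVSSDC against ZJDC went from 226 to 0 calls, as it did with only the 2 groups compared; DESeq2 gave 1508 and the 7 libraries 361. Leaving out a library gave from 0 to 6515 calls. Scaling by library size alone moved the median of all genes in OMVSSDC against PBSDC from 0.05 to 0.18 and the calls to 4672 higher and 2819 lower, beside 3866 and 3492. Iigp1 could not be tested under the stricter filter. Depth limits Iigp1, Tgtp1 and Tgtp2, and the sequence shared by Tgtp1 and Tgtp2 limits that pair further.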
